A study of Mus musculus with 6 samples.

Results

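The carbonic anhydrase genes Car13, Car1, Car3 and Car2 lie side by side on mouse chromosome 3, and open chromatin was described here at all peaks in or within 50 kb of them. The genes were taken by symbol from RefSeq (GRCm38.p6, the same assembly as mm10), and a peak counted when it overlapped a gene or lay no more than 50 kb from either end. Merging peaks of the 6 samples that shared at least 1 bp gave 30 regions at these 4 genes, of 75961 regions in all. The assay was ATAC-seq, in which a transposase inserts adapters into accessible DNA. It was run on bone marrow of C57BL/6 mice after removal of lineage-positive cells, which leaves mostly stem cells and progenitors (HSPCs). The wild-type genotype (UTX_WT) is represented by 3 samples and the knockout genotype (UTX_KO) by 3, and in the latter the histone demethylase UTX is missing. The labels give no age or treatment, no deleted exon and no driver of the deletion, and they do not say whether samples of a genotype came from separate animals, so that p-values measure the spread between these samples only.

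Carbonic anhydrases are zinc enzymes that interconvert carbon dioxide and bicarbonate. In red cells this reaction lets blood carry carbon dioxide as bicarbonate, and Car1 and Car2 encode the abundant cytosolic enzymes of these cells. Car2 is also the enzyme with which osteoclasts acidify bone, Car3 encodes a slow enzyme of skeletal muscle and fat, and Car13 encodes a cytosolic enzyme found in many tissues.

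The gene spans in mm10 are 14641727 to 14663002 for Car13, 14766214 to 14808365 for Car1, 14863538 to 14872381 for Car3 and 14886269 to 14900770 for Car2. Together they extend over 259 kb. Car13 lies 103211 bp from Car1, Car1 lies 55172 bp from Car3, and Car3 lies 13887 bp from Car2. Strand and exons are not used here, so gene ends are called lower and upper by coordinate, and positions are given as the distance of a region's centre from the lower end of Car2.

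Each sample has 1 deposited list of peak coordinates with no read count or score, so the depth is unknown and the width of a peak is the only quantity it carries. The whole lists held 57405 to 57917 peaks in wild type and 44576 to 50249 in knockout, a difference of the means of -19.0%. A region with a peak in all 3 wild-type samples and in no knockout sample is called lost below, and one with the opposite pattern is called gained. Wild-type sample 3 stood apart at these genes: of the 30 regions 12 were found in a single sample, and 8 of these in this sample, against 1 each in wild-type samples 1 and 2. In the whole series 15.5% of regions were found in a single sample and 4.85% in wild-type sample 3 alone. Results that rest on this sample are given with and without it.

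**Figure D1:**
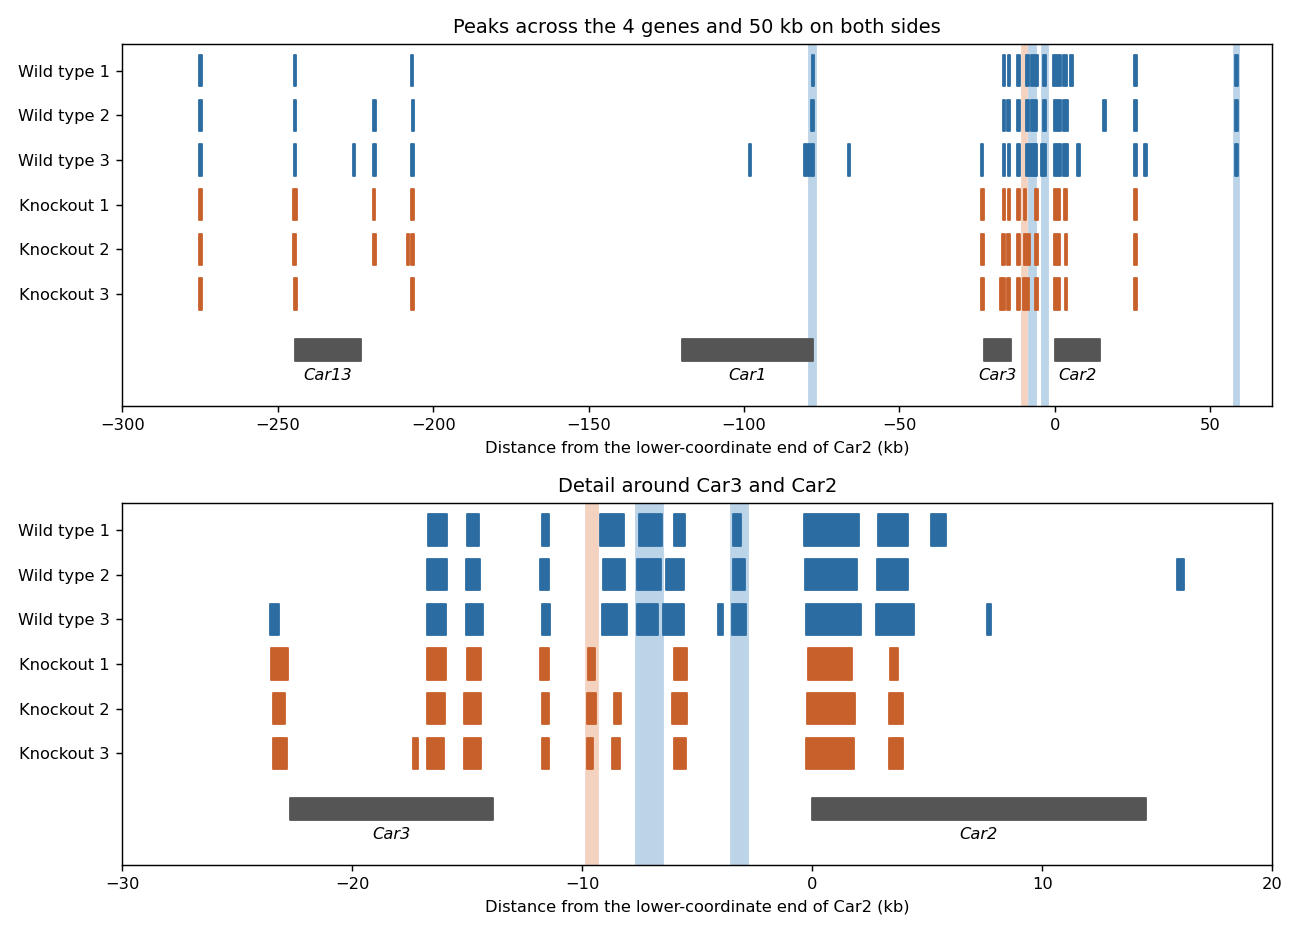
Peaks of each sample (bars; blue, wild type; orange, knockout) by distance in kb from the lower-coordinate end of Car2, with the 4 genes in grey; blue shading marks lost and orange shading gained regions. The upper panel draws every peak at least 0.8 kb wide, and the lower panel, around Car3 and Car2, is to scale; the 4 lost regions and the 1 gained region stand out as columns with bars from 1 genotype alone.

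Knockout samples had fewer peaks and fewer covered bases at the 4 genes than wild-type samples, and the share of their peaks that lay there overlapped between the genotypes. There were 16, 17 and 25 peaks in wild-type samples 1, 2 and 3, and 13, 15 and 14 in knockout samples 1, 2 and 3. The means were 19.3 ± 4.93 (SD, n = 3) and 14 ± 1 (SD, n = 3), and the groups did not overlap (two-sided exact permutation p = 0.1, the smallest that 3 samples against 3 allow, adjusted p = 0.15 over the 3 measures). Without wild-type sample 3 the difference was -2.5 peaks in place of -5.33 peaks (exact permutation p = 0.2).

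Covered bases were 12.1, 12.6 and 16.7 kb in wild-type samples 1, 2 and 3 and 9.35, 10.6 and 9.72 kb in knockout samples 1, 2 and 3. All knockout values lay below all wild-type values, with a ratio of the means of 0.716 (two-sided exact permutation p = 0.1), where the ratio over the whole lists was 0.844. Without wild-type sample 3 the ratio was 0.799 and the difference -2478 bases in place of -3920 bases. Peaks at the 4 genes per 10000 peaks of the list were 2.79, 2.94 and 4.34 in wild type and 2.87, 2.99 and 3.14 in knockout. These shares overlapped (exact permutation p = 0.9), and without wild-type sample 3 the difference turned from -0.354 to 0.138 peaks per 10000.

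**Figure D2:**
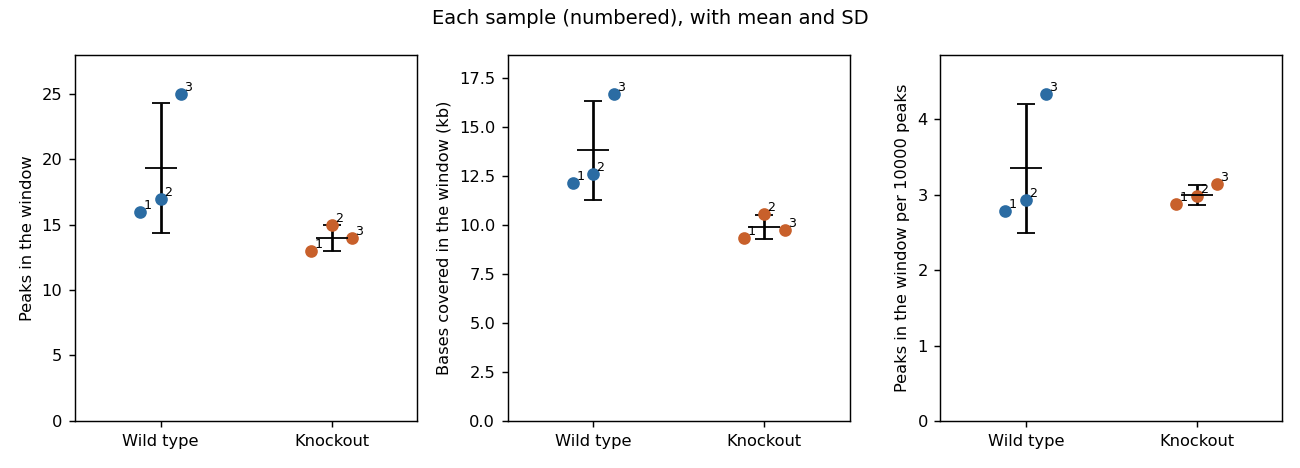
Number of peaks, kilobases covered and peaks per 10000 peaks of the list at the 4 genes, for each numbered sample, with mean and SD (n = 3 per genotype). Knockout points lie below wild-type points in the first and second panels and among them in the third; wild-type sample 3 is the highest in every panel.

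Lost regions made up 4 and gained regions 1 of the 30 (13.3% and 3.33%), and 10 (33.3%) were present in every sample. In the whole series the lost share was 10.6%, the gained share 4.69% and the share present in every sample 41.0%. Among the 15 regions with a peak in all 3 wild-type samples, 4 were lost, and the share over the series was 17.3%. Among the 12 with a peak in all 3 knockout samples, 1 was gained, and the series share was 9.62%. The counts of lost and gained regions are therefore close to what all regions show. Counted in single bases, a measure added after the data were seen, 31.0% of 10445 bases present in all 3 wild-type lists were covered by no knockout list, against 15.2% in the series. Bases of the same peak are not independent of each other, and these lie in a few regions, so this difference was not tested. This percentage was 31.2 to 33.4 when single samples were left out, and leaving out a knockout sample can raise but not lower it. The presence of a peak in a single region cannot pass 0.05 in an exact permutation test of 3 samples against 3.

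Car1, the red cell enzyme gene, had peaks only in wild-type samples. In or within 50 kb of the gene there were 1, 1 and 5 peaks in wild-type samples 1, 2 and 3, and 0 in each of the 3 knockout samples. The one region shared by all wild-type samples overlapped the upper end of Car1 at 14807988 to 14808764. Its peaks were 576, 615 and 777 bp wide in wild type, and with 0 bp in every knockout sample it was lost. The lower end of Car1 had no region. The other 4 regions were found in wild-type sample 3 alone: 3 inside the gene, of 236, 203 and 686 bp, and 1 of 456 bp outside it, 11541 bp from the upper end. Without wild-type sample 3 the contrast at Car1 is thus 1 peak in each wild-type sample against 0 in each knockout sample. At least 1 lost region lay in or within 50 kb of 41.7% of all protein-coding genes, and at least 3, as at Car2, of 10.1%. The share of all genes with peaks in wild-type samples alone was not counted.

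Between Car3 and Car2, the red cell and osteoclast enzyme gene, lay 2 lost regions, 1 gained region and 1 with narrower knockout peaks. Nearest to Car3 were the gained region (4104 bp), the one with narrower peaks (4646 bp) and 1 lost region (6268 bp). The other lost region was nearest to Car2 (2861 bp). The lost region at 14878649 to 14879747 had its centre 7.07 kb below Car2, with peaks of 1007, 1061 and 889 bp in wild type. The lost region at 14882774 to 14883408 had its centre 3.18 kb below Car2, with peaks of 352, 490 and 635 bp in wild type. All 6 of these peaks lacked a counterpart in the 3 knockout samples.

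Next to them, the region at 14877027 to 14878208 (centre 8.65 kb below Car2) had peaks of 1068, 949 and 1095 bp in wild type, 0 bp in knockout sample 1 and 320 and 313 bp in knockout samples 2 and 3. Each knockout width was under each wild-type width, although the region is not lost by the definition used. The gained region lay 142 bp from it, at 14876485 to 14876884, with knockout peaks of 334, 392 and 268 bp. Its centre was 9.585 kb below Car2, and no wild-type sample had a peak there. At least 1 gained region lay in or within 50 kb of 17.1% of protein-coding genes.

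The first lost region ended 42 bp before a region that all 6 samples had, at 14879790 to 14880824 (centre 5.96 kb below Car2). That region measured 476, 776 and 910 bp in wild type and 575, 641 and 510 bp in knockout, and these groups overlapped. The remaining lost region lay 43865 bp above Car2 at 14944635 to 14945007, with peaks of 231, 243 and 373 bp in wild type. Their mean was 282 ± 78.7 bp (SD, n = 3), the lowest of the 4 lost regions.

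**Figure D3:**
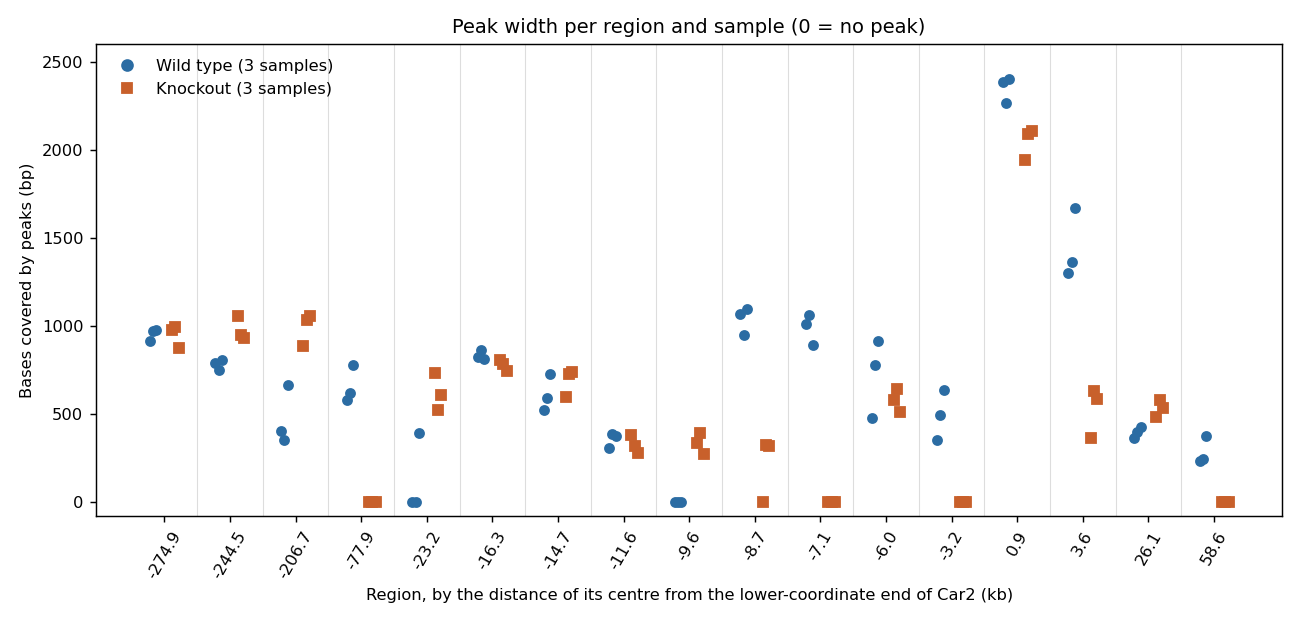
Bases covered by peaks in each sample (circles, wild type; squares, knockout; 3 samples each) for the lost, gained and shared regions and the regions at -23.2 and -8.7 kb, ordered by distance from the lower end of Car2 in kb; 0 means no peak. Knockout squares lie at 0 at the 4 lost regions and below the wild-type circles at 0.9 and 3.6 kb.

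Inside Car2, a region with a peak in every sample became narrower in knockout. At 14889037 to 14890706, with its centre 3602 bp above the lower end, the peaks were 1299, 1362 and 1670 bp wide in wild type and 364, 626 and 580 bp in knockout. The groups did not overlap, and the log2 width changed by -1.49 with a standard error of 0.211, a ratio of 0.355 (limma across 31159 shared regions, adjusted p = 0.0049). With single samples left out, the ratio was 0.320 to 0.420 and the adjusted p by limma 0.00391 to 0.0213. The region over the lower end of Car2, at 14885923 to 14888404, was the widest of the 4 genes. It measured 2383, 2262 and 2399 bp in wild type and 1938, 2086 and 2105 bp in knockout. All knockout values were under all wild-type values, but the log2 difference of -0.20 (standard error 0.0565) did not pass (limma adjusted p = 0.0537), and the median of all shared regions was itself -0.10.

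From the lower end of Car3 to the upper end of Car2, a stretch of 37.2 kb, the covered bases were 8866, 8736 and 9942 in wild type and 4987, 5890 and 5725 in knockout. The ratio of the means was 0.603 in this stretch and 0.941 in the other regions of the 4 genes. Without wild-type sample 3 these ratios were 0.629 and 1.22, so that the direction in the other regions rests on that sample. This stretch was picked out after its values were seen, so no test is given. In bulk samples such as these, fewer cells in which a site is open and a less open site in each cell cannot be told apart.

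Car3, the muscle and fat enzyme gene, had peaks within its span in both genotypes, while 2 lost and 1 gained region lay within 20 kb of it. The region inside the gene at 14869506 to 14870393 measured 824, 863 and 810 bp in wild type and 806, 783 and 740 bp in knockout. The region near its upper end, at 14871129 to 14871947, measured 520, 587 and 727 bp in wild type and 593, 727 and 735 bp in knockout. The values of the former lay apart by a few bases, with the lowest wild-type peak at 810 bp and the highest knockout peak at 806 bp, and those of the latter overlapped. Neither passed in the limma fit (adjusted p = 0.417 and 0.466). At the lower end of Car3, 73 bp outside the gene and within the long non-coding RNA gene Gm41999, the region at 14862682 to 14863465 had knockout peaks of 732, 519 and 603 bp. Wild-type sample 3 had a peak of 388 bp there, and wild-type samples 1 and 2 had none. Left out, wild-type sample 3 makes this a second gained region. The shared region between the genes at 14874439 to 14874873 had overlapping widths, 305 to 386 bp in wild type and 275 to 377 bp in knockout.

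Car13, the broadly expressed enzyme gene, had no lost and no gained region in 6. It had 3, 4 and 5 peaks in wild type and 4, 5 and 3 in knockout. The region over its lower end, at 14641240 to 14642316, measured 785, 747 and 803 bp in wild type and 1055, 949 and 927 bp in knockout. Every knockout peak was wider than every wild-type peak, with a log2 difference of 0.33 and a standard error of 0.0853 (limma adjusted p = 0.0432). This call ended with any 1 sample left out (limma adjusted p = 0.0702 to 0.120).

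The region 16044 bp above Car13, at 14679046 to 14680101, measured 400, 347 and 665 bp in wild type and 884, 1030 and 1056 bp in knockout. Its log2 width was higher in knockout by 1.13 with a standard error of 0.233, a ratio of 2.18 (limma adjusted p = 0.0201). The call ended without wild-type sample 1 or 2 or knockout sample 2 or 3 (limma adjusted p = 0.0514 to 0.0694), with ratios of 1.91 to 2.14, and held without wild-type sample 3, with a ratio of 2.65 (limma adjusted p = 0.00385).

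Of the 10 shared regions at the 4 genes, 1 became narrower and 2 became wider. Over the 31159 shared regions of the series, 8.84% became narrower and 6.34% wider. The region 11252 bp above Car2 measured 362, 397 and 422 bp in wild type and 482, 579 and 534 bp in knockout, without overlap, and did not pass (log2 difference 0.43, standard error 0.119, limma adjusted p = 0.0512). The region at the upper end of the neighbouring gene Rbis, 29822 bp below Car13, had a ratio of the means of 0.996.

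**Figure D4:**
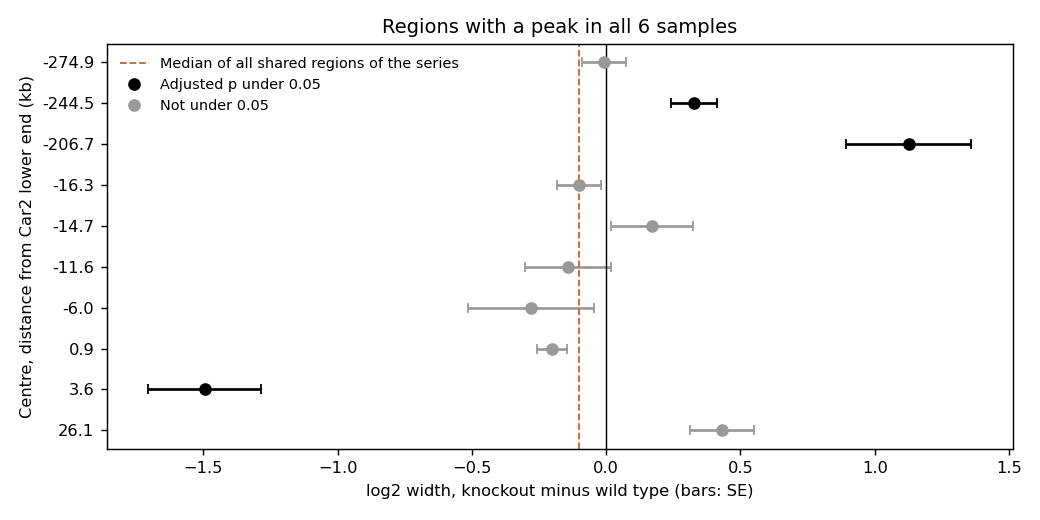
Difference in log2 width between knockout and wild type (points; bars, SE; n = 3 per genotype) for the 10 regions with a peak in all 6 samples, by distance from the lower end of Car2 in kb. The regions at -244.5, -206.7 and 3.6 kb passed an adjusted p of 0.05 (black), the last to the left and the others to the right of the dashed median of all shared regions at -0.10.

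The limit of 50 kb set which regions entered. The farthest region inside was the lost one 43865 bp above Car2. On the lower side the nearest region outside lay 61.9 kb below Car13 at the gene E2f5, with peaks of 938 to 1046 bp in wild type and 1047 to 1470 bp in knockout. On the upper side it lay 67.7 kb above Car2, with a single peak of 238 bp in knockout sample 2. With a limit of 100 kb there were 5 lost and 2 gained regions. In the 500 kb beyond the lower limit, 4 regions held 0 lost and 0 gained, and in the 500 kb beyond the upper limit, 18 regions held 1 lost and 4 gained. In the whole series 10.6% of regions were lost and 4.69% gained. Samples had 10 regions each in wild type and 14, 17 and 16 in knockout on that upper side, the opposite order to that at the 4 genes. This difference on the upper side was not tested. Neighbouring protein-coding genes Lrrcc1, E2f5, Rbis and Gm9733 each had 1 shared region in or within 1 kb. Ralyl, which reaches beyond the lower 500 kb, had 2 gained regions, both outside that stretch. Slc7a12 and Sirpb1a had no region.

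Gene by gene, Car2, Car3 and Car13 had enough peaks for the test on the number of peaks in or within 50 kb, and none of them passed. Car2 had 12, 12 and 15 peaks in wild type and 9, 10 and 11 in knockout, a log2(peaks + 1) difference of -0.34 with a standard error of 0.116 (limma across 15772 genes, adjusted p = 0.0754). Car3 had 11, 11 and 15 against 9, 10 and 11 (log2 difference -0.27, standard error 0.145, limma adjusted p = 0.198), and its surroundings overlap those of Car2. Car13 differed by 0 (limma adjusted p = 1), and Car1 was under the minimum mean of 2 peaks. The median over all genes tested was -0.27, 35.3% of genes had fewer peaks and 3.47% had more. Without the minimum of 2 peaks, Car1 had a log2 difference of -1.53 with a standard error of 0.490. It did not pass there (limma across 21883 genes, adjusted p = 0.093). The differences without wild-type sample 3 were -0.24 for Car2, -0.13 for Car3 and 0.14 for Car13, and none of them passed. As peaks per 10000 peaks, the differences were -0.05 for Car2, 0.01 for Car3 and 0.13 for Car13. With equal list lengths, made by keeping the 44576 widest peaks of each sample, they were -0.17, -0.17 and 0.30. The direction at Car3 thus turned under the former scaling and not under the latter. Peak numbers are whole and small, and a gene whose replicates tie has no spread of its own in this fit.

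Covered bases in place of peak numbers gave another picture for 3 genes. Car2 fell by 0.60 on the log2 scale and Car3 by 0.58, and Car13 rose by 0.39 (limma adjusted p = 2.82e-04, 5.04e-04 and 0.031). At Car13 the bases were 2097, 2286 and 2924 in wild type and 3153, 3578 and 2858 in knockout, so the groups overlapped. The surroundings of Car13 hold both regions that became wider, so its rise is not separate from them. Single samples were not left out in the fit of covered bases. The surroundings of Car2 and Car3 overlap, and both held 6201, 6988 and 6862 covered bases in knockout samples 1, 2 and 3. Their falls are therefore not separate results. In the Car3 span alone the bases were 1344, 1450 and 1537 in wild type and 1399, 1510 and 1674 in knockout. The median of all genes was -0.30 on this measure, and 54.6% of genes had fewer and 7.61% more covered bases.

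Carbonic anhydrase genes elsewhere in the genome were compared on the same scale. Of 12, 10 had enough peaks, 1 had fewer peaks in knockout (Car6, encoding a secreted salivary enzyme, 10, 9 and 9 peaks against 7, 8 and 7; limma adjusted p = 0.0264) and 0 had more. Their median log2 difference was -0.10, where that of all genes was -0.27 and 35.3% of all genes had fewer peaks. Lost regions numbered 1 each at Car5a, Car5b, Car6 and Car8, which is 4 of the 12 genes where 41.7% of all protein-coding genes had at least 1. A single gained region lay near Car7, and 17.1% of all protein-coding genes had at least 1.

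Of 7 genes that move carbon dioxide, bicarbonate or acid across cell membranes, 4 had fewer peaks in knockout and 0 had more, with a median log2 difference of -0.47, against 35.3% of all genes with fewer and the median of -0.27. Aqp1, a water channel that also conducts carbon dioxide, had 12, 13 and 20 peaks in wild type and 3, 3 and 4 in knockout (log2 difference -1.86, standard error 0.22, limma adjusted p = 0.00533). Rhag, of the Rh complex of the red cell membrane, had 10, 9 and 13 against 2, 4 and 4 (limma adjusted p = 0.0155). Slc4a1, the chloride-bicarbonate exchanger band 3, had 10 in each wild-type sample and 6, 7 and 8 in knockout (limma adjusted p = 0.0228). The lactate transporter gene Slc16a1 also had fewer peaks (limma adjusted p = 0.0356). The bicarbonate transporter genes Slc4a2, Slc4a4 and Slc4a7 had differences of -0.04, -0.10 and 0.06 and did not pass.

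**Figure D5:**
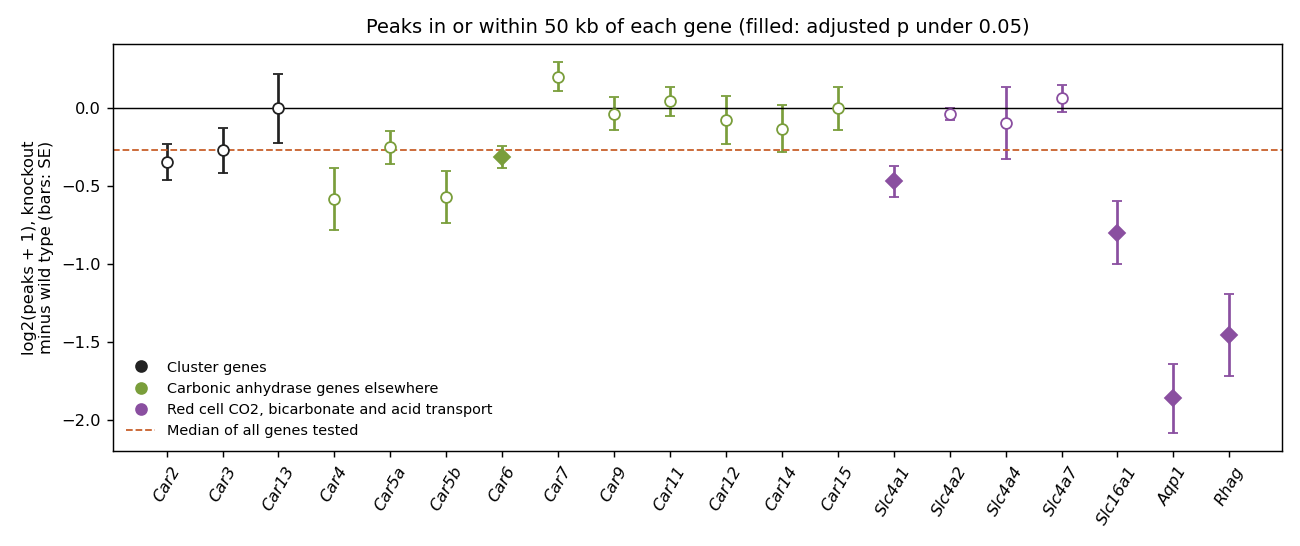
Difference in log2(peaks + 1) between knockout and wild type for each gene (points; bars, SE; n = 3 per genotype; filled, adjusted p under 0.05) and the median of all genes tested (dashed). Car1, Car8 and Car10 had too few peaks to enter; Aqp1 and Rhag lie lowest, and Car2, Car3 and Car13 lie between -0.34 and 0.

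The genes whose 6 peak numbers were most like those of the 4 genes together, by Euclidean distance after division by the wild-type mean over 6 samples and 5608 genes, were Vsx1 (distance 0.0944), Tef (0.114), 1190005I06Rik (0.124), St6galnac6 (0.125) and Stx3 (0.146). Vsx1, for example, had 9, 11 and 15 peaks in wild type and 8, 9 and 8 in knockout. As these genes were chosen for likeness over all 6 samples, a high wild-type sample 3 follows from the choice.

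Markers of the cells that the preparation can hold were read as peaks in or within 20 kb. All 7 progenitor markers, among them Kit, Cd34 and Flt3, had peaks in every sample, 48 to 53 in sum in wild type and 38 to 40 in knockout. The 8 erythroid markers had 44 to 47 peaks in wild type and 19 to 20 in knockout, and none was without a peak. Every knockout sample had fewer peaks than every wild-type sample at 7 of the 8 erythroid and 5 of the 7 progenitor markers. The same held at 3 of the 4 megakaryocyte and 2 of the 4 osteoclast markers. It also held at 1 of the 5 granulocyte and monocyte and 1 of the 4 muscle and fat markers. Among all genes with a peak in this range the share was 27.6%. The opposite held at 2 of the 4 B lymphoid, 1 of the 4 osteoclast and 1 of the 5 granulocyte and monocyte markers. Among all genes with a peak in this range that share was 4.25%. The part of the erythroid markers in the differences at Car1 and Car2 was not tested. The 4 osteoclast markers had 21 to 23 and 19 to 20 peaks, with Calcr at 0 in all samples. The 4 markers of muscle and fat had 13 to 15 and 10 to 13, with Acta1 at 0. Megakaryocyte markers had 25 to 28 and 12 to 15, granulocyte and monocyte markers 36 to 40 and 31 to 36 with Ly6g at 0, B lymphoid markers 15 to 22 and 33 to 38, and T lymphoid markers 7 to 10 and 7 to 8.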

How the data were processed

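The authors deposited 1 peak list per sample, called per sample, whose 3 columns give the chromosome and the start and end positions; the unit of the latter is a base position. MACS2 and mm10 are named without a version or role, per the submitters' processing notes, and the file labels carry a p threshold of 1e-11. The sources used here do not give the aligner, the read filters, any shift of insertion sites or the handling of duplicates. Longer or wider peaks can come from more open chromatin or from a deeper or cleaner library, and depth is unknown.

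Peaks of the 6 samples sharing at least 1 bp were merged into regions, and a sample was taken to have a region if it had a peak within it. Width is the number of bases of a region that a sample's peaks cover. Values per sample were tested by exact permutation (two-sided). Peak numbers per gene, log2(peaks + 1) with a mean of at least 2 peaks, and log2 widths of shared regions were fitted with limma 3.58.1 (trend, R 4.3.3), with Benjamini-Hochberg adjustment over all genes or regions at 0.05; all else ran in Python 3.11.15. The procedures were tested on simulated data. Genes and regions named are the 4 members, the lost, gained and shared regions, neighbours within 500 kb, the 5 genes with the most similar peak numbers and the comparison and marker lists; other regions were named after their values were seen. Members and lists were chosen with earlier results of these data known. A planned motif search in promoters was not run, as no sequence was used here. Equal replicate numbers did not pair samples. One gene of the comparison lists is not reported here and does not enter their counts.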

Additional observations from a re-analysis of the deposited data

How the results depend on the processing

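Alternatives were leaving out each sample, the widest 50% of peaks, equal list lengths, other distances, other definitions of a region and of a call, other scales and a replicate block. Of 85 summary values under an alternative, 73 kept their direction and their side of the threshold or, for counts, stayed within 1.5 times the count given. Exact permutation p-values could not fall under 0.05 in any setting, so for those values only the direction could change. The difference in peaks was -2 with equal list lengths and -2.5 to -7 with single samples left out. The share of peaks per 10000 turned to 0.138 without wild-type sample 3, and the range with single samples left out was -0.638 to 0.138. Lost regions numbered 4 with any sample left out. Leaving out a sample loosens the definition, as fewer samples must meet it, so the unchanged count says little about stability. Within the gene spans alone (0 kb) lost regions numbered 1 and gained regions 0. Other settings gave 3 to 6 lost. Gained regions numbered 2 at 100 kb and where peaks had to cover 50% of the region, and 1 to 2 with single samples left out. By covered bases the 3 genes that entered the fit passed, Car2 and Car3 lower, with overlapping surroundings, and Car13 higher. Car1 did not enter it. With the replicate block 1 passed, namely Car2 (limma adjusted p = 0.0441). Shared regions called for width numbered 1 to 2, in place of 3, with single samples left out. The direction turned for Car3 as peaks per 10000 peaks (0.0082) but not with equal list lengths (-0.17), and for the Rbis region, whose log2 width difference of -0.0072 ranged from -0.0427 to 0.0493 with single samples left out, higher in knockout without wild-type sample 2 (0.0049), wild-type sample 3 (0.0109) or knockout sample 3, and was 0.0508 with median widths set equal. That scaling also brought the region 11252 bp above Car2 past the threshold (0.49, limma adjusted p = 0.0286). The cause was not tested. Same-numbered samples did not deviate together (correlations -0.0300 to 0.0250). With the replicate block, paired sign changes gave an exact permutation p of 0.25 for peaks and covered bases, the smallest that 3 pairs allow, and the widening at the lower end of Car13 did not pass (limma adjusted p = 0.0891). Depth is unknown, so a missing peak is no evidence of closed chromatin.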
